A study of Mus musculus with 17 samples.

Results

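The genes described here were 9 transcripts that mark T cells and the cytotoxic programme of T cells and natural killer (NK) cells: Cd3d, Cd3e, Cd4 and Cd8a of the T cell receptor complex and its coreceptors, and the effectors Gzma, Gzmb, Prf1, Ifng and Nkg7. They were taken by gene symbol from the expression tables of 3 sorted populations of mouse lung tumors, whatever their values. Of the 9 genes, 4 had a row among the 16410 genes of the tumor cell table, namely Cd3d, Cd3e, Cd4 and Cd8a. Only Cd4 had a row among the 13545 genes of the TRM table, and none of the 9 had a row among the 13407 genes of the MDM table. The 5 effectors had no row in any of the 3 tables and were not analysed here, and a missing row is not a level of 0.

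T cells read antigen through a receptor made of variable chains and the invariant CD3 chains, whose cytoplasmic tails carry the signal inward. CD4 and CD8 are coreceptors that bind MHC class II and class I on the partner cell, and they mark helper and regulatory T cells on one side and cytotoxic T cells on the other. Cytotoxic T cells and NK cells kill through granules that hold granzymes and the pore-forming protein perforin, and they release interferon gamma, which raises antigen presentation and chemokine genes in the cells around them. In mice, some dendritic cells also carry Cd4 or Cd8a.

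KL mice carried Lkb1fl/fl, a floxed Lkb1, together with a Cre-activated allele that is not named here, and KLG4 mice carried Gpx4m/m in addition, on a C57BL/6 background. In the Gpx4m allele, exons 5 to 7 of Gpx4 lie between rox sites, and Cre unlocks a tamoxifen-dependent Dre recombinase driven by the CAG promoter that removes them. Both genotypes, aged 8 to 10 weeks per the methods of the study, received Ad-Cre through the nose and then tamoxifen, and cells were taken 10 weeks after Ad-Cre. Tumor cells were sorted by EpCAM and the absence of CD31 and CD45, although passages of the methods write the CD45 sign of this gate as positive. The populations labelled TRMs and MDMs, abbreviations that the sources used here do not spell out, came from the tumors as well. Ad-Cre acts on the cells it reaches in the airways rather than on one cell type. Each group had 2 libraries, 12 in all, and the labels do not say whether the 2 libraries of a group came from separate mice. A figure legend of the study gives separate mice for the tumor cell RNA-seq. For TRMs and MDMs the origin is not given in the sources used here, so that their p-values measure only the spread between these libraries, which may be technical. The other 5 samples of the series, CD8+ T cells among them, were not analysed here.

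The tumor cell libraries held 17.6 and 15.9 M (mega, as in the unit prefix) counted reads in KLG4 and 36.6 and 30.2 M in KL, and the TRM and MDM libraries held 9.14 to 26.8 M. The 2 KLG4 tumor cell libraries stood unusually close to each other. Their read counts differed by a mean chi-square of 3.28 per gene, where about 2 would arise from sampling when both mates of a pair are counted, against 28.9 to 132 in the other 5 groups. This narrow spread entered the tumor cell p-values, which may therefore understate the spread between KLG4 mice. Gpx4, the targeted gene, was at 56.4 and 61.9 RPKM (reads scaled to the length of the gene in kilobases and to the depth of the library in M) in KLG4 tumor cells and at 95.0 and 76.8 RPKM in KL, a difference that passed the test (log2 fold change -0.53, limma adjusted p = 0.0360) but lost the threshold under 7 of the alternatives run, leaving out either KLG4 library among them. Values are per gene, so that reads from exons outside the removed ones count as well.

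The sequences upstream of Cd3d, Cd3e and Cd8a are shown because these are genes known from T cells that were low together in KL tumor cells. Cd3d, Cd3e and Cd3g form a cluster on chromosome 9, in which the starts of Cd3d and Cd3g lay 1355 bases apart on opposite strands. Each sequence is the 250 bases before the start site, from RefSeq on build GRCm38.p6, written 5′ to 3′ on the strand of the gene, with motif matches in capitals. They lie at chr9:44981536-44981785 on the plus strand for Cd3d, at chr9:45009612-45009861 on the minus strand for Cd3e and at chr6:71373177-71373426 on the plus strand for Cd8a. The table held 8 of the 9 genes and had no entry for Cd4.
Cd3d: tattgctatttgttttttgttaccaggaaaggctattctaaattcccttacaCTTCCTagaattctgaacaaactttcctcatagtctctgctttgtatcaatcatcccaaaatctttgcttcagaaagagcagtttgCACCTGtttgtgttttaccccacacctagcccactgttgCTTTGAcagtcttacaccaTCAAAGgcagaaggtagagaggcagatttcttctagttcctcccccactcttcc
Cd3e: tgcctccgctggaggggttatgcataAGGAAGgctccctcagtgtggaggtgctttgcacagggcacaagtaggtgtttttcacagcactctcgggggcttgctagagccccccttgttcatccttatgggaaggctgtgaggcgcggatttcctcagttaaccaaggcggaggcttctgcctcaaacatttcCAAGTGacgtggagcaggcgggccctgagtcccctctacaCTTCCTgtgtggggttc
Cd8a: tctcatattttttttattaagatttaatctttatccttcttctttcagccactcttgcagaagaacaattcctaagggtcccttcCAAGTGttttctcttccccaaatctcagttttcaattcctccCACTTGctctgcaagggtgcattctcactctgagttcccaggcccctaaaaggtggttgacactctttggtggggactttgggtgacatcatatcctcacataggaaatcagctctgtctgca

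On both strands, the letters TGTGGT were searched for RUNX factors, the letters AGATAA for GATA factors and the letters CANNTG for the E-box. The letters AGGAAG were searched for ETS factors, the letters CTTTGA for LEF/TCF factors, the letters TATAAA for the TATA box and the letters TGACGTCA for the CRE. No 2 matches overlapped. Cd3d held 1 E-box, 1 ETS and 2 LEF/TCF matches, Cd3e held 1 E-box and 2 ETS matches, and Cd8a held 2 E-box matches. The E-box was found in all 3 sequences, and it is a common word, present in 66.2% of the 32851 upstream sequences of this length in the table, as against 29.5% for ETS and 13.8% for LEF/TCF. The RUNX, GATA, TATA and CRE letters were found in none of the 3 windows, against 14.0%, 9.99%, 12.4% and 1.55% of all windows. GC content was 41.2% for Cd3d, 57.2% for Cd3e and 42.8% for Cd8a, with a median of 52.4% over all windows.

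Whether the T cell transcripts differed between tumor cells of the 2 genotypes was examined first. Cd3d, Cd3e, Cd4 and Cd8a were all near 0 in both KL libraries and were measurable in both KLG4 libraries, with no overlap between the groups. In KL each rested on at most 8 reads per library, and in KLG4 on 22 to 504 reads. The gain was smallest for Cd8a and largest for Cd4. These rows were there through the KLG4 libraries, as set out below, so that the direction of the tests that follow was fixed.

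Cd3d encodes the CD3 delta chain of the receptor complex and lies at chr9:44981786-44987339 on the plus strand (GRCm38). KLG4 replicates 1 and 2 held 3.65 and 4.29 RPKM of Cd3d, as against 0.0602 and 0.0364 RPKM in KL, or 4 and 2 reads. Both KLG4 values were above both KL values, and the group means were 3.97 ± 0.451 and 0.0483 ± 0.0168 RPKM (SD, n = 2). As log2(RPKM + 0.1), a scale on which genes near 0 show too small a change, Cd3d was higher in KLG4 by 4.78 (SE 0.25, limma adjusted p = 0.000278).

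Cd3e, the CD3 epsilon chain, lies on the minus strand at chr9:44998740-45009627. Its level was 1.38 and 1.55 RPKM in KLG4, as against 0.0268 and 0.0162 RPKM in KL, again 4 and 2 reads in the KL libraries. The groups did not overlap, and Cd3e was higher by 3.69 on the log2 scale (SE 0.27, limma adjusted p = 0.000595). Cd3e overlaps the annotated genes Gm48719, on the opposite strand, and Gm48720, on its own strand, and reads were counted without strand. Neither of these had a row in the tumor cell table.

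Cd4 encodes the coreceptor of helper and regulatory T cells and lies at chr6:124864692-124888221 on the minus strand. KLG4 held 6.47 and 7.85 RPKM, 460 and 504 reads, as against 0.0542 and 0.0656 RPKM in KL, 8 reads in each library. With means of 7.16 ± 0.980 and 0.0599 ± 0.00807 RPKM (SD, n = 2), Cd4 had the highest level and the largest difference of the 4 genes, 5.50 on the log2 scale (SE 0.23, limma adjusted p = 0.000166).

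Cd8a encodes the alpha chain of the CD8 coreceptor of cytotoxic T cells and lies at chr6:71373427-71379173 on the plus strand. It was the lowest of the 4, at 0.639 and 0.380 RPKM in KLG4, 41 and 22 reads. KL replicate 1 held 0.0451 RPKM, 6 reads, and KL replicate 2 held 0 reads, where 3 reads would be 0.0273 RPKM. With 2 reads taken as 1 fragment, a count of 0 allows more than that. Because no library reached 1 RPKM, Cd8a was below the filter of the test. Without that filter it was higher in KLG4 by 2.31 on the log2 scale (SE 0.33, limma adjusted p = 0.00355). Its row was still there through the KLG4 libraries alone, so that this direction was fixed.

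**Figure D1:**
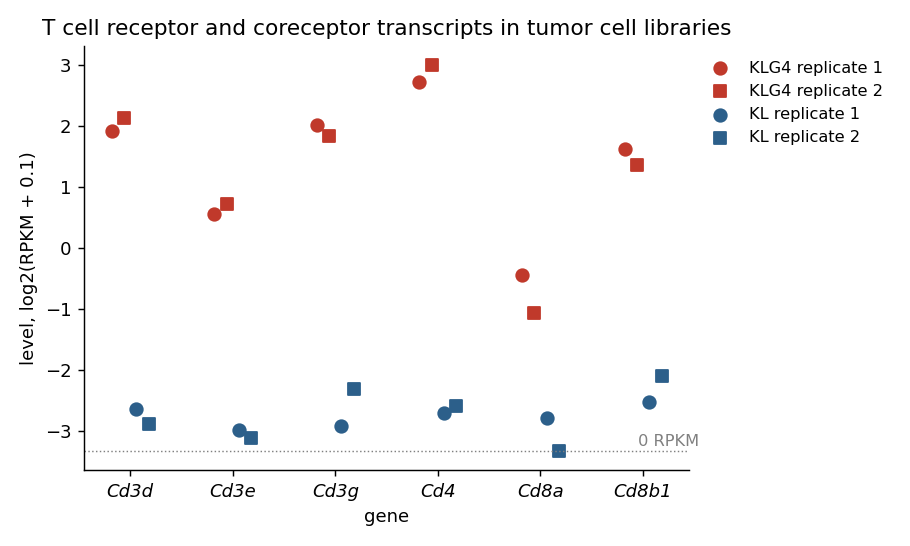
Level of Cd3d, Cd3e, Cd3g, Cd4, Cd8a and Cd8b1 in the 4 tumor cell libraries, as log2(RPKM + 0.1), with 1 point per library, red for KLG4 and blue for KL, circles for replicate 1 and squares for replicate 2. The KL points lie close to the dotted line of 0 RPKM, Cd8a of KL replicate 2 lies on it, and both KLG4 points lie above both KL points for each of the 6 genes.

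Read as ratios of pooled reads scaled to depth, the KLG4 level was 80.0 times the KL level for Cd3d (95% exact interval 26.7 to 393) and 66.4 times for Cd3e (22.1 to 327). For Cd4 the ratio was 120.0 (60.4 to 280) and for Cd8a 20.9 (6.53 to 107). The Cd8a ratio rested on single libraries, since it was 11.5 without KL replicate 2 and no ratio could be formed without KL replicate 1, which held all 6 KL reads. In alternatives chosen after seeing the data, leaving out each library in turn gave 65.7 to 109 for Cd3d, 54.5 to 90.1 for Cd3e and 109 to 132 for Cd4. These intervals take 2 reads as 1 fragment and cover counting error only, and they are wide because 6 to 16 reads in all stood on the KL side. The intervals of the 4 genes overlapped one another.

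Such counts need the background of the table beside them. Of 13770 genes tested in tumor cells, 20.6% were higher and 19.6% were lower in KLG4 at an adjusted p under 0.05, and without the filter 21.5% were higher. In 34.3% of all rows, the lower KLG4 value exceeded the higher KL value. In addition, each row of the tumor cell table reached about 1.01 RPM (reads scaled to depth in M, without gene length) or more in at least 2 libraries, whereas the 4 genes were at most at 0.265 RPM in KL. Their rows were therefore there through the KLG4 libraries, and a row of this kind had to be higher in KLG4, so that the number of members that were higher carries no weight of its own. Genes with no row took 0.189% to 0.256% of the counted reads of these libraries together.

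The order of the levels in KLG4 tumor cells was Cd4, Cd3d, Cd3e and Cd8a, and in each neighbouring pair the lower of the 2 values of the first gene lay above the higher value of the second. The partner chains Cd3g and Cd8b1 are given as a description, since both were also under 0.2 RPKM in KL and were tested through their KLG4 libraries. Cd3g, which lies next to Cd3d, was at 3.95 and 3.48 RPKM in KLG4 and at 0.0334 and 0.101 RPKM in KL, higher by 4.54 on the log2 scale (SE 0.30, limma adjusted p = 0.000441). Cd8b1, the beta chain that pairs with Cd8a on conventional CD8 T cells, was at 2.98 and 2.46 RPKM in KLG4 and at 0.0737 and 0.134 RPKM in KL, higher by 3.80 (SE 0.28, limma adjusted p = 0.000587). Its level per length was 4.67 and 6.47 times that of Cd8a in the KLG4 libraries.

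Within a library the ratio of 2 genes does not depend on how the library was scaled. The Cd4 to Cd8a ratio of RPKM was 10.1 and 20.7 in the KLG4 libraries and 1.20 in KL replicate 1, where it rested on 8 and 6 reads, and it could not be formed in KL replicate 2. The ratio of Cd3d to Cd3e was 2.66 and 2.76 in KLG4 and 2.25 in both KL libraries. In KL it rested on 4 reads of each gene in replicate 1 and 2 reads of each in replicate 2. The equal value of 2.25 therefore only gives the ratio of the gene lengths.

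Set against Ptprc, which encodes CD45 and is carried by nearly every white blood cell, Cd3e was at 5.14% and 5.69% of the Ptprc level in KLG4 and at 3.21% and 0.785% in KL. Cd3d was at 13.7% and 15.7% against 7.22% and 1.77%, and Cd4 at 24.2% and 28.7% against 6.50% and 3.18%. The groups did not overlap for these 3 genes, although the gap was far smaller than in RPKM, because Ptprc itself was at 26.7 and 27.4 RPKM in KLG4 and at 0.834 and 2.06 RPKM in KL. Cd8a did not separate in this way. It stood at 2.39% and 1.39% of Ptprc in KLG4, between KL replicate 1 at 5.40% and KL replicate 2 at 0. With 0 to 8 reads per gene in KL, these ratios are given as a description with no test. The member rows were there through the KLG4 libraries, and the share of all genes that separate on this ratio is not given here.

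**Figure D2:**
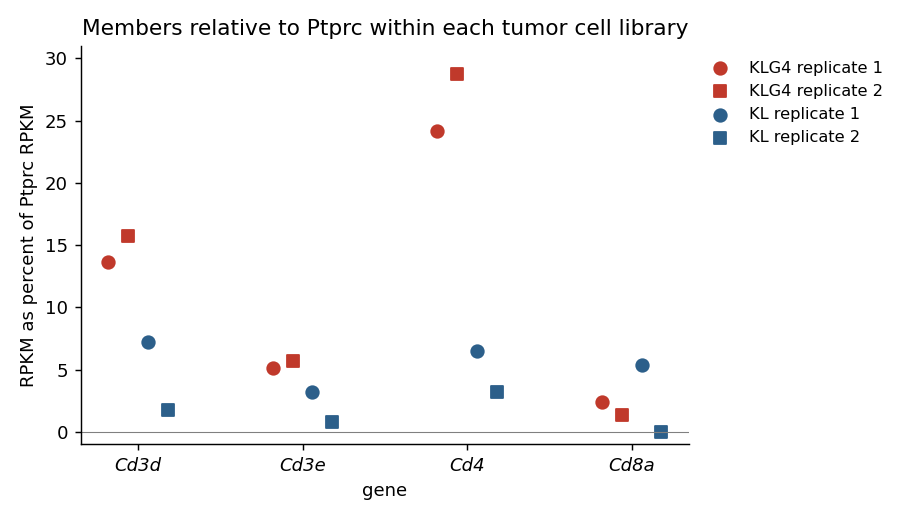
RPKM of Cd3d, Cd3e, Cd4 and Cd8a as a percentage of the Ptprc RPKM of the same tumor cell library, with 1 point per library, red for KLG4 and blue for KL, circles for replicate 1 and squares for replicate 2. Cd4 reaches 24.2% and 28.7% in KLG4 against at most 6.50% in KL, while for Cd8a the KL values of 5.40% and 0 lie on either side of the KLG4 values.

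Although the results of the study describe the tumor cells as CD45-, the markers of other cells moved with genotype in the same libraries. The 6 pan leukocyte genes, Ptprc among them, were all higher in KLG4, with a summed level of 148 to 149 RPKM against 30.7 to 34.9 RPKM. The summed T cell receptor and coreceptor genes went from 0.118 to 0.186 RPKM in KL to 12.1 to 14.1 RPKM in KLG4. The 8 epithelial genes were all lower, from 8498 to 10489 RPKM in KL to 4148 to 4180 RPKM in KLG4, Epcam among them at 215 and 211 RPKM in KLG4 against 638 and 420 RPKM in KL, and 3 genes of the list passed without KLG4 replicate 1 or without KLG4 replicate 2.

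T cell transcripts were not alone among the other cell types. All 5 neutrophil genes with a row, all 7 monocyte-derived macrophage genes with a row and all 6 fibroblast genes were higher in KLG4, with summed levels of 2152 to 2249 against 178 to 271 RPKM, 233 to 237 against 20.5 to 28.9 RPKM, and 369 against 10.6 to 15.7 RPKM. Of the alveolar macrophage genes, 5 of 8 were higher, and of the pan macrophage genes 5 of the 5 tested, with 269 to 278 against 35.6 to 43.5 RPKM and 844 to 879 against 225 to 284 RPKM. In these 5 lists 1 or 2 of the genes counted per list were under 1 RPKM in both KL libraries, and the rest were not. Of the rest, Itgax and C1qb reached 1 RPKM in only 1 KL library. The summed B cell genes were at 6.18 to 6.30 against 0.884 to 1.10 RPKM and the summed conventional dendritic cell genes at 12.6 to 13.0 against 0.924 to 1.71 RPKM. The 3 B cell and 4 dendritic cell genes tested were under 1 RPKM in both KL libraries, so that their direction was fixed by the filter. The plasma cell list, with a sum of 222 to 229 against 208 to 217 RPKM, held opposite changes. Jchain, which joins secreted antibodies, was at 101 and 112 RPKM in KLG4 against 0.304 and 0.631 RPKM in KL (log2 fold change 7.61), and Mzb1 and Irf4 gave 4.79 and 4.42, all 3 under 1 RPKM in KL. Sdc1, which epithelial cells also express, was at 68.4 and 67.1 against 180.4 and 167 RPKM (-1.35), and Xbp1 did not pass (-0.07). The endothelial (2 higher of 4 tested, 10.1 to 10.2 against 4.93 to 7.97 RPKM), plasmacytoid dendritic cell (1 higher of 2 tested, 14.0 to 14.3 against 10.1 to 11.7 RPKM) and mast cell and basophil lists (1 higher and 1 lower of 3 tested, 59.3 to 59.4 against 36.5 to 67.1 RPKM) separated less. The share of reads from mitochondrial genes also moved with genotype, at 8.95% and 8.88% in KLG4 against 4.21% and 5.12% in KL. The part of these other cells and of the mitochondrial share in the T cell result was not tested, and in sorted bulk samples more cells of a type and more RNA per cell cannot be told apart.

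NK cells and gamma delta T cells share genes with the members, so their markers were read separately. Of 10 NK cell genes, 4 had a row in tumor cells, and Ncr1 and Klrb1c, which define the cells in C57BL/6 mice, had none. Klrd1 was at 0.929 and 0.834 RPKM in KLG4 against 0.0426 and 0 RPKM in KL, and Il2rb, an interleukin receptor chain that T cells also carry, was at 2.34 and 2.95 against 0.0784 and 0.0950 RPKM. Both were under 1 RPKM in KL, so that their direction was fixed by the KLG4 libraries. Klrc1, an inhibitory receptor of NK cells, was at 0.543 and 0.127 RPKM in KLG4 against 2.15 and 1.07 RPKM in KL (log2 fold change -2.08, limma adjusted p = 0.0391), a call lost without KLG4 replicate 2 (limma adjusted p = 0.171) or KL replicate 1 (0.124). The summed NK cell list was 4.31 to 4.36 RPKM in KLG4 and 1.19 to 2.31 RPKM in KL. Of 5 gamma delta T cell genes only Cd163l1 had a row, at 0.633 and 0.685 against 0.142 and 0.0343 RPKM, and it was below the filter.

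**Figure D3:**
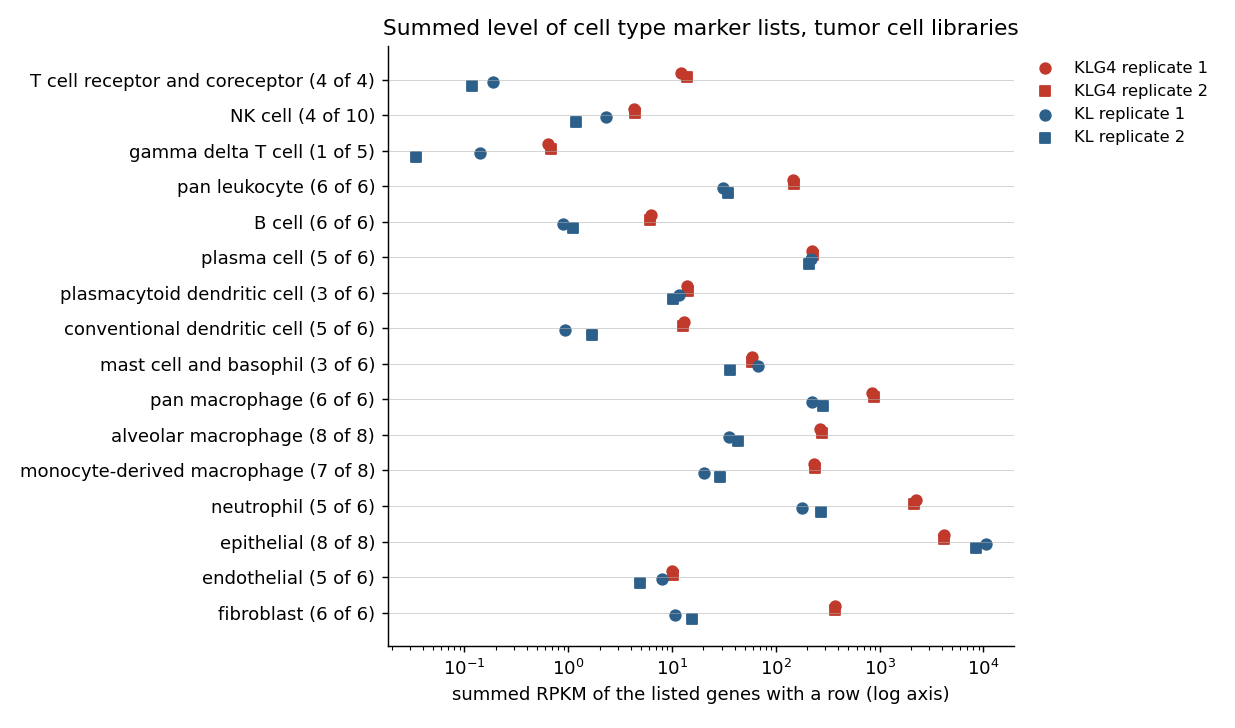
Summed RPKM of each cell type marker list in the 4 tumor cell libraries on a log axis, with the number of listed genes that had a row in parentheses, red for KLG4 and blue for KL, circles for replicate 1 and squares for replicate 2. The T cell receptor and coreceptor genes lie at 12.1 to 14.1 RPKM in KLG4 and at 0.118 to 0.186 RPKM in KL, most leukocyte and fibroblast lists lie higher in KLG4 as well, and the epithelial list lies lower.

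Genes that lie near the members on the chromosome were read as well. Within 100 kb of the 4 genes, 20 other genes had a row, of which 18 were tested, 4 were higher in KLG4 and 7 were lower. The 4 included Cd3g and Cd8b1, and without these the counts were 18, 16, 2 and 7. All 4 were under 1 RPKM in both KL libraries and were tested through KLG4, so that their direction was fixed by the filter. Mpzl2, 30172 bases from Cd3e, was lower, with a log2 fold change of -0.71 and a limma adjusted p = 0.0302, but not without either KLG4 library (limma adjusted p of at least 0.197). P3h3, 6940 bases from Cd4 and an enzyme of collagen modification, was at 8.23 and 8.60 RPKM in KLG4 against 0.473 and 0.639 RPKM in KL, a description for the same reason. Lag3, an inhibitory receptor of T cells 16140 bases from Cd4, was at 0.967 and 0.447 RPKM in KLG4 and at 0.570 and 0.455 RPKM in KL, and its groups overlapped. These 3 neighbours were named after their values were seen.

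The wider pathway was read from 5 lists of 62 genes, of which 55 had a row in tumor cells and 45 were tested. Of these 45 genes, 18 were under 1 RPKM in both KL libraries, so that they could be tested only by being higher in KLG4. Of the other 27, 16 were higher, 4 were lower and 7 did not pass, with a median log2 fold change of 0.97 against -0.09 over all 13770 genes tested, of which 20.6% were higher and 19.6% lower. Over all 45 the counts were 34 and 4. Among the 27, Trac, Trbc1, Zap70, Lcp2, Cd2 and Tcf7 reached 1 RPKM in only 1 KL library. They also needed a KLG4 library to be tested, and all of them were higher, so that the 27 still lean upward through the filter.

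All 14 tested genes of T cell receptor signalling were higher in KLG4, with a median log2 fold change of 3.91. In 7 of them both KL libraries were under 1 RPKM, so that they passed the filter through KLG4, and the other 7 were higher as well. Of those, Trac, Trbc1, Zap70, Lcp2 and Cd2 reached 1 RPKM in only 1 KL library and also needed a KLG4 library. Only Trbc2 and Lat passed the filter on their KL libraries. Cd6, a surface regulator of T cell signalling, was at 3.43 and 4.19 RPKM in KLG4 against 0.00802 and 0.0583 RPKM in KL, higher by 4.90 on the log2 scale (limma adjusted p = 0.000384). The receptor constant genes moved less: Trac was at 10.9 and 13.2 RPKM in KLG4 against 0.964 and 1.10 RPKM in KL (3.42), and Trbc2 at 10.9 and 8.08 against 3.47 and 2.87 RPKM (1.54). Trbc1 and Trbc2 are near-identical copies, so the split of reads between them is uncertain.

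Of the T cell subset and differentiation genes, 13 of 14 had a row, 8 were tested and 6 were higher, with none lower. Of these 8, 5 were under 1 RPKM in both KL libraries, Il7r, Il2ra and Ccr7 among them. Of the remaining 3 only Tcf7 was higher, and it reached 1 RPKM in only 1 KL library. Il7r, the interleukin 7 receptor of resting and memory T cells, was at 6.85 and 6.58 RPKM in KLG4 against 0.153 and 0.0618 RPKM in KL, higher by 5.07. Il2ra, the interleukin 2 receptor alpha chain, was at 2.90 and 2.23 RPKM against 0 and 0.0463 RPKM (4.45), and Ccr7, the homing receptor for lymph nodes, at 8.34 and 7.94 against 0.276 and 0.702 RPKM (3.91). These 3 differences had a limma adjusted p of 0.000329, 0.000548 and 0.00123. Foxp3, the factor of regulatory T cells, was at 3.13 and 3.68 RPKM in KLG4 and at 3.16 and 2.79 RPKM in KL, with overlapping groups (log2 fold change 0.19, limma adjusted p = 0.463). It was also at 4.60 to 7.21 RPKM in TRMs and at 2.19 to 4.23 RPKM in MDMs. Foxp3 overlaps Ppp1r3f and Ccdc22 on the opposite strand, and without strand their reads cannot be told apart.

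The cytotoxic granule and death ligand list held genes in both directions. Of 14, 9 had a row and all 9 were tested, with 4 higher, 3 lower and 2 that did not pass, and the median log2 fold change was -0.29. Fasl and Ctsw were under 1 RPKM in both KL libraries, and of the other 7 genes 2 were higher and 3 lower. The granzymes Gzmc, Gzmk and Gzmm had no row, as was the case for Gzma and Gzmb. Fasl, the death ligand of activated T and NK cells, was at 1.32 and 1.49 RPKM in KLG4 against 0.0564 and 0.0341 RPKM in KL, higher by 3.37. Srgn, the granule proteoglycan serglycin, which myeloid cells also make in quantity, was at 444 and 453 RPKM against 12.4 and 22.4 RPKM (4.74), and Stx11, a fusion protein of granule release, at 52.8 and 50.9 against 11.6 and 12.3 RPKM (2.11). These 3 passed with a limma adjusted p of 0.000755, 0.000344 and 0.000315, and the fourth gene that was higher was Ctsw, at 1.15 and 1.48 against 0.333 and 0.215 RPKM.

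The 3 granule genes that were lower each lost the threshold without either KLG4 library. Serpinb9, an inhibitor of granzyme B, was at 20.2 and 19.3 RPKM in KLG4 and at 37.5 and 48.7 RPKM in KL, lower by a log2 fold change of -1.11 (limma adjusted p = 0.00456, or 0.0637 and 0.0746 without KLG4 replicate 1 and 2). Stxbp2 and Unc13d, parts of the granule release machinery, gave -0.97 and -0.94. The epithelial list, with a median of -1.17, moved the same way, and its part in these values was not tested. Outside the lists, 1 granzyme did have a row, Gzme, which was named after its values were seen. Gzme stood at 16.5 and 18.8 RPKM in KLG4, against 119 and 77.2 RPKM in KL, lower by a log2 fold change of -2.44 (SE 0.23, limma adjusted p = 0.00107), against the direction of the T cell receptor genes. Gzme has close copies among the granzyme genes, so its reads may be shared with them.

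Interferon gamma itself had no row, and the genes that induce it or answer it were read in its place. Of 8 induction genes, 7 had a row and 6 were tested, with 4 higher and 1 lower. The 3 genes named next were under 1 RPKM in both KL libraries and were tested through KLG4, and of the other 3 genes 1 was higher and 1 lower. Il12b and Il12a, the 2 subunits of interleukin 12, which myeloid cells make, were at 12.2 and 13.1 RPKM against 0.139 and 0.672 RPKM (4.89) and at 1.20 and 1.37 against 0.0321 and 0.0194 RPKM (3.46). Stat4, which carries the interleukin 12 signal in T and NK cells, was at 7.73 and 8.27 RPKM in KLG4 against 0.310 and 0.623 RPKM in KL (3.89). The limma adjusted p was 0.00193, 0.000736 and 0.000721 in that order. Il18r1, a receptor chain for interleukin 18, was the gene that was lower, at 23.7 and 22.5 against 40.9 and 40.3 RPKM (-0.81), a call lost without either KLG4 library (limma adjusted p = 0.0731 and 0.0891).

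All 10 genes of the interferon gamma receptor and response list had a row, 8 were tested and 6 were higher, with a median of 1.17. Socs1 was under 1 RPKM in both KL libraries, and of the other 7 genes 5 were higher. Cxcl10, a chemokine that draws T cells, was at 7.93 and 6.69 RPKM in KLG4 against 1.14 and 1.53 RPKM in KL (log2 fold change 2.38, limma adjusted p = 0.00103). Socs1, a feedback inhibitor, and Jak2, a kinase of the receptor, were higher by 2.08 and 1.90. Ifngr2, a chain of the receptor, did not pass (log2 fold change 0.06, limma adjusted p = 0.753). Cxcl10 overlaps Art3 on the opposite strand.

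In the TRM and MDM tables the members gave far less to compare. Cd4 in TRMs was at 0.278 and 0.211 RPKM in KLG4, 30 and 10 reads, and at 0.347 and 0.0543 RPKM in KL, 14 and 2 reads. The KL values lay on either side of the KLG4 values. Cd4 was below the filter of the test, and without it the log2 fold change was 0.38 (95% interval -1.25 to 2.02, limma adjusted p = 0.740), turning to -0.38 without KL replicate 2.

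Across the populations, Cd4 was at a mean of 7.16 RPKM in KLG4 tumor cells, 0.244 in KLG4 TRMs, 0.201 in KL TRMs and 0.0599 in KL tumor cells. Values of the last 3 groups overlapped in part, since KL TRM replicate 2 at 0.0543 RPKM lay level with the KL tumor cell libraries. Tables had been made separately, so this order carries no test. Against Ptprc, which was at a mean of 74.3 RPKM in KLG4 TRMs and 36.7 RPKM in KL TRMs, Cd4 was at 0.128% to 1.12% in TRMs, where it was at 24.2% and 28.7% in KLG4 tumor cells.

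The TRM and MDM labels were checked against defining markers. Siglecf, a marker of alveolar macrophages, and Csf1r, the receptor for macrophage growth factor, were at means of 20.8 and 41.3 RPKM in KLG4 TRMs and of 21.5 and 15.7 RPKM in KL TRMs. MDMs held Csf1r at means of 39.1 and 29.8 RPKM and Siglecf at means of 13.1 and 8.96 RPKM in KLG4 and KL, so that Siglecf was present under both labels, and the neutrophil gene S100a9 stood at means of 16998 RPKM in KLG4 and 15242 RPKM in KL.

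Of the 62 pathway genes, 31 had a row in TRMs and 24 were tested, of which 2 were higher and none was lower. The background in TRMs was 1.36% higher and 0.437% lower of 10990 genes tested, with a median log2 fold change of 0.38, which quantile scaling moved to -0.01. Il7r was at 9.48 and 7.48 RPKM in KLG4 against 2.87 and 2.42 RPKM in KL (log2 fold change 1.64, limma adjusted p = 0.0475), and Jak2 at 32.5 and 46.9 against 14.5 and 14.7 RPKM (1.41, limma adjusted p = 0.0485). Both lost the threshold under 6 other settings, quantile and TMM scaling among them, and without KLG4 replicate 2 or KL replicate 1, and Il7r also without KLG4 replicate 1 (limma adjusted p = 0.198). In the same TRM libraries, mitochondrial genes took 1.43% and 2.40% of the reads in KLG4 against 13.2% and 9.17% in KL. Of 8 alveolar macrophage genes 3 were higher in KLG4, and the 7 epithelial genes tested had a median log2 fold change of -1.90, with none called and 6 at an unadjusted p under 0.05. The part of these in the TRM values was not tested.

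The genes of the other lists with the highest levels in TRMs did not pass the test, although limma-voom on recovered reads called Cd2 lower (-0.67, adjusted p = 0.0255) and Il18 lower (-0.96, adjusted p = 0.0117). Cd2, an adhesion receptor, and Lcp2, an adaptor of receptor signalling, which many leukocytes share with T cells, were at 52.7 to 71.9 and 43.4 to 51.8 RPKM over the 4 libraries (log2 fold changes -0.27 and 0.11). Srgn was at 59.4 to 95.1 RPKM and Ctsc, the protease that activates granzymes, at 60.9 to 75.6 RPKM (0.35 and 0.04). Il18 was at 87.5 and 102 RPKM in KLG4 and at 146 and 132 RPKM in KL (-0.55, limma adjusted p = 0.105), and Il12b at 9.25 and 8.35 against 3.30 and 9.12 RPKM (0.67). Of the receptor genes only Cd247 and Lat had rows beside Cd2 and Lcp2, at 0.430 to 1.46 RPKM.

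In MDMs 36 of the 62 pathway genes had a row and 26 were tested. No gene of the table passed in MDMs at an adjusted p under 0.05 with limma (0% of 10475 higher and 0% lower), and 0 passed with limma-voom on recovered reads, while 706 genes, 1 of the 26 among them, had an unadjusted p under 0.05. Lcp2 was at 63.8 to 106 RPKM and Cd2 at 4.58 to 19.0 RPKM (log2 fold changes 0.30 and -0.76). Il7r was at 2.08 to 4.15 RPKM (-0.49). Srgn was at 768 to 930 RPKM and Stx11 at 102 to 132 RPKM (0.14 and -0.11). Il18rap and Il18 gave 0.44 and -1.22, and Jak2 and Irf1 gave 0.80 and -0.69. Leaving out KL replicate 1 turned this picture, since 2682 genes then passed, 11 of the 26 among them.

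**Figure D4:**
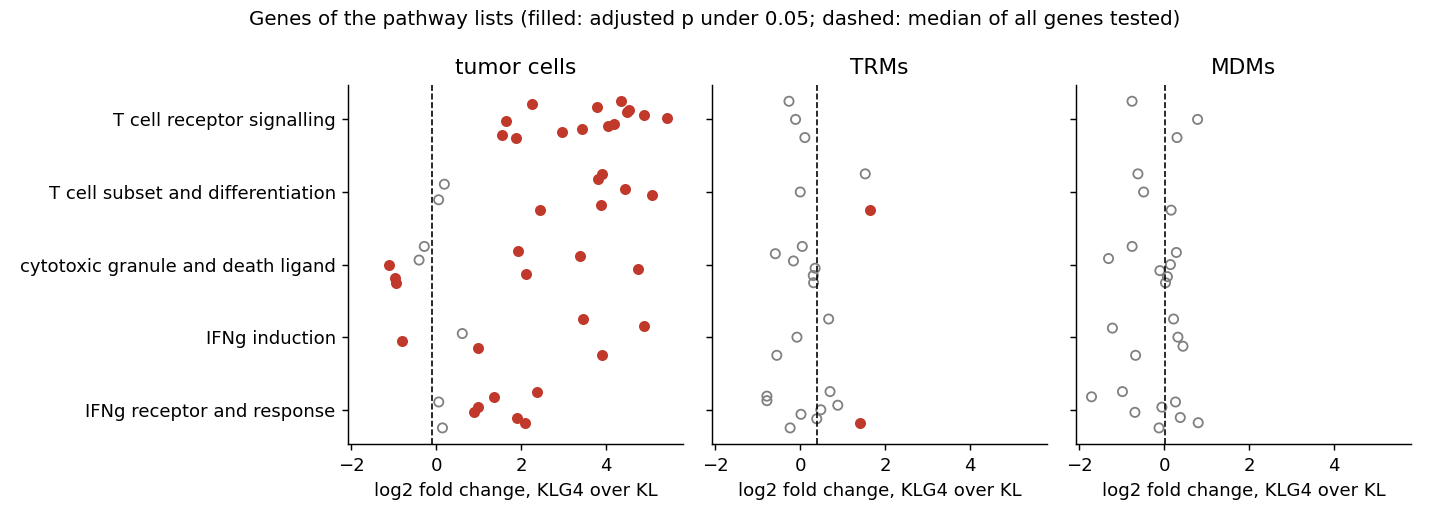
Log2 fold change, KLG4 over KL, of each tested gene of the 5 pathway lists in tumor cells, TRMs and MDMs, with filled red points for an adjusted p under 0.05 and open grey points otherwise, and a dashed line at the median of all genes tested. In tumor cells 34 points are called higher and 4 lower, in TRMs 2 are called higher, and in MDMs none is called.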

How the data were processed

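RNA-seq tables of tumor cells, TRMs and MDMs were used, each with 2 KL and 2 KLG4 libraries. The authors deposited RPKM values per gene, made from reads trimmed with Trim Galore 0.6.4, aligned with HISAT2 2.0.5 and counted with featureCounts 2.0.0, per the submitters' processing notes, on GRCm38. The log2 fold changes, p-values and related scores that the authors deposited beside them were not used. Every gene of the tumor cell table, and every gene whose length was known in the TRM and MDM tables (95.7% and 93.9% of rows), had reached at least 1.00 RPM in at least 2 of its libraries.

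Values were tested on log2(RPKM + 0.1) with limma 3.58.1 in R 4.3.3 (moderated test with a trend, two-sided), over genes of at least 1 RPKM in at least 2 of 4 libraries, with Benjamini-Hochberg adjustment over each table and a threshold of 0.05. The fit was tested on simulated data. Whole reads were recovered from the RPKM steps for 100% of values under 2000 reads, within a tolerance of 0.05. Ratios of pooled reads have exact 95% intervals that take 2 reads as 1 fragment, because odd counts made up only 17.4% to 32.5% of counts under 30. The floor given for 0 reads is the level of 3 reads, not of 3 fragments, so that 0 reads allow more. Intervals and floors cover counting error only. Python 3.11.15, pandas 2.3.3, numpy 2.4.6 and scipy 1.17.1 were used for the rest.

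The members and gene lists were chosen with earlier results of these data known. Named genes were, in each pathway list and table, up to 3 with the largest absolute fold change among those that passed or, where none passed, the 2 with the highest level, and the other genes were named after their values were seen. A planned search for genes most like Gzmb or Cd3e was not made, since Gzmb had no row and Cd3e had 4 libraries. Alternatives were other pseudocounts (1 and 0.01), no filter, quantile and TMM scaling, rescaling outside mitochondrial genes, no trend, a replicate block, limma-voom on recovered reads and leaving out each library. Unfiltered voom and unfiltered omission of a library were chosen after seeing the data. Some items that the rule would name are not reported here.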

Additional observations from a re-analysis of the deposited data

Results flagged for a closer look

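Of 101 comparisons of the same gene between populations, over the 61 genes that are members or are named in the text, 13 had both libraries of KLG4 on one side of both KL libraries in one population and on the opposite side in the other. None of these differences was tested, because the tables were made separately. The share of all genes that turned in this way is not given here, so that the 13 are a description only. Between tumor cells and MDMs, the log2 fold changes of Il7r were 5.07 and -0.49, a difference of 5.56, and Il7r in TRMs, at 1.64, differed from MDMs by 2.13. Between tumor cells and TRMs, Cd2 gave 4.35 and -0.27, a difference of 4.62. Cxcl10 gave 2.38 and -0.79 in the same populations, a difference of 3.17, and Il18 gave 0.61 and -0.55, a difference of 1.16. Gpx4 was at -0.53 in tumor cells and -0.68 in TRMs but at 0.76 in MDMs, differences of -1.29 and -1.44. Stxbp2 was at -0.97 in tumor cells and 0.31 in TRMs, a difference of -1.28, and S100a9 at 3.25 and -0.96, a difference of 4.22. Among the plasma cell markers, Jchain gave 7.61 in tumor cells and -0.96 in TRMs, a difference of 8.57, with TRM levels under 1 RPKM in every library. Sdc1 was at -1.35 in tumor cells, 1.77 in TRMs and -1.32 in MDMs, so that tumor cells and MDMs differed from TRMs in direction, by -3.13 for tumor cells against TRMs and 3.09 for TRMs against MDMs. Xbp1 gave 0.43 in TRMs and -0.51 in MDMs, a difference of 0.94.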

How the results depend on the processing

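Over the alternatives run, the log2 fold change in tumor cells was 2.24 to 6.23 for Cd3d, 1.27 to 5.96 for Cd3e and 2.94 to 6.89 for Cd4, whose direction the filter fixed. Cd8a, fitted only without the filter, ran from 1.99 without KLG4 replicate 1 to 5.11 with unfiltered voom. The tumor pathway count of 38 (34 higher and 4 lower) ranged from 29 to 45, and became 29 higher and 0 lower without either KLG4 library. In all tumor cell genes, 51.3% of calls were higher, against 38.5% with quantile scaling, 60.6% with TMM and 61.2% with voom. Without KLG4 replicate 1 and 2, 5543 calls became 1990 and 1927, of which 80.0% and 80.5% were higher. The TRM pathway count of 2 became 0 with pseudocount 0.01, no filter, quantile or TMM scaling, rescaling outside mitochondrial genes and no trend, 4 (2 higher and 2 lower) with voom, filtered or not, and 0 to 6 with a library left out (6 without KL replicate 2). The MDM count of 0 ranged from 0 to 11 with a library left out, with 11 without KL replicate 1. The cause was not tested. No member had a row in MDMs.

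Over genes, the deviations of same-numbered libraries from their group means correlated at 0.019, -0.060 and 0.054 in tumor cells, TRMs and MDMs. With 2 libraries per group this gives a single value per population and cannot decide whether the numbers pair the samples. With the replicate block, 5388 tumor cell, 470 TRM and 0 MDM genes passed, against 5543, 198 and 0 without it. The block gave 3 tumor members and 39, 2 and 0 pathway genes in tumor cells, TRMs and MDMs.

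Directions turned for TRM and MDM genes that had not passed. Lcp2 in TRMs was at -0.19 with quantile scaling, -0.28 with TMM or voom, -0.037 rescaled outside mitochondrial genes and -0.27 with unfiltered voom, and from -0.021 (without KL replicate 2) to 0.23 with a library left out. Ctsc in TRMs was at -0.22, -0.35, -0.34, -0.099 and -0.32 with quantile, TMM, voom, rescaled and unfiltered voom values, and from -0.11 (without KLG4 replicate 1) to 0.20. Srgn in TRMs was at -0.044 with TMM, -0.078 with voom and -0.061 with unfiltered voom. Il12b in TRMs ran from -0.054 (without KL replicate 1) to 1.38 and Cd4 from -0.38 (without KL replicate 2) to 1.15. In MDMs, Lcp2 ran from -0.072 to 0.67 and Cd2 from -1.77 to 0.25, the turned values being those without KL replicate 2. Stx11 ran from -0.28 to 0.072 (without KLG4 replicate 2) and Irf1 from -1.73 to 0.35 (without KL replicate 1).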
